A study of Mus musculus with 8 samples.

Results

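Ribosome rescue and translation termination factors were examined in mouse embryonic stem cells, as 10 genes chosen by name: *Pelo*, *Hbs1l*, *Gtpbp1*, *Gtpbp2*, *Abce1*, *Zfp598*, *Nemf*, *Ltn1*, *Etf1* and *Gspt1*. All 10 were among the 17597 genes of the deposited table. The names were selected from that table with the authors' own comparison of treated and untreated cells known, and the fold changes and p-values of that comparison are not given here. What is described is the level of each factor in these cells and what the transcripts share.

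Total RNA was sequenced from embryonic stem cells of a Cast x 129S background in which METTL3, the enzyme that writes N6-methyladenosine (m6A) on RNA, carries the FKBP12F36V degron. Adding the small molecule dTAG-13 brings the tagged protein to the proteasome. There were 8 libraries: 4 from untreated cells and 4 from cells given dTAG-13 for 26 hours, and each of these groups held 2 libraries of clone C3 and 2 of clone H5. All cells of both groups also carried a TetOn promoter in place of the endogenous *Xist* promoter, no doxycycline was given, and all were grown on inactivated mouse fibroblast feeders. The labels put this promoter on the 129S allele, whereas the study's text describes the parent line of both clones as carrying it on the Cast allele, and the files used here do not settle which. Each clone is 1 line, so the libraries of a clone are not independent lines. The design asks which genes respond when METTL3 is lost for about a day. That question cannot be answered from the values used here, because each gene has a single value, the authors' mean over all 8 libraries of read counts divided by a size factor (called the mean count). The mean carries no spread, mixes treated with untreated cells, and lets no library be set beside another. A gene that differed between the groups has a mean count between its levels in each.

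A ribosome reaches a stop codon, stalls on a damaged or truncated message, or runs into another ribosome ahead of it, and each event has its own machinery. At a stop codon eRF1 (encoded by *Etf1*) reads the codon and releases the peptide with the GTPase eRF3 (*Gspt1*). At a stalled ribosome with no stop codon their relatives Pelota (*Pelo*) and the GTPase HBS1L take the same place without releasing the peptide, and in both cases the ATPase ABCE1 splits the ribosome into its subunits. ZNF598 (*Zfp598* in the mouse) is a ubiquitin ligase that marks collided ribosomes, while NEMF and the ubiquitin ligase listerin (*Ltn1*) work on the peptide left on the large subunit after splitting. GTPBP1 and GTPBP2 are related GTPases that act in the resolution of stalled ribosomes.

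The mean counts of genes summed to 14573411 reads and those of 1097 transposable element subfamilies to 1719306. The cells expressed the genes that mark their label. All 8 stem cell markers were above the median gene, from *Klf4* at 464 mean count per kb of exon to *Dppa5a* at 16142, with *Pou5f1* at 5309 and *Zfp42* at 4840. Among 8 fibroblast markers the collagen genes were low, at 3.02 for *Col1a1*, 1.11 for *Col1a2* and 0.853 for *Col3a1*, and *Postn* was at 0.0882. *Pdgfrb* was at 1.96 and *Thy1* at 38.7, while *Vim* (437) and *Fn1* (423), which stem cells can also express, were well above them. The part of feeder RNA in the values of the rescue factors was not tested, and in such bulk RNA fewer cells of a type and less RNA per cell cannot be told apart.

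The release factors and the splitting ATPase were the 3 most abundant of the 10, by exon, longest transcript and coding length alike. Levels of different genes were compared mainly per length, as mean count per kb of the union of annotated exons. Other lengths and the mean counts are given beside it where named. Exons are those of GENCODE vM21, whereas the study took its gene annotation from UCSC. Bases called exon here may therefore differ from those over which the authors counted reads, most of all in genes with many annotated transcripts. The part of this in the levels was not tested. Over the 13465 genes of known length whose mean count was 10 or more, the median gene stood at 81.2 per kb, and 10 percent of genes were above 643. Of the 10 factors, 9 lay above the median gene and 3 in the top 10 percent. The median of the factors was 328 per kb and their range ran from 32.1 to 2751 per kb, an 85.8-fold span. Together they took 0.233% of all gene reads.

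*Etf1*, the stop codon reader, was the highest. It lies on the minus strand of chromosome 18 from 34902785 to 34932007 (GRCm38, the build of mm10) and had a mean count of 10202 over 3709 bases of exon, 2751 per kb, above 98.3% of genes. *Abce1*, which serves both termination and rescue, followed. Its gene (chromosome 8, 79683462 to 79711740, minus strand) had nearly the same mean count, 10182, spread over 6004 bases of exon, which gave 1696 per kb. *Abce1* was 0.617 times *Etf1* per kb of exon and 0.976 times per kb of the longest transcript. *Gspt1*, the GTPase partner of *Etf1* (chromosome 16, 11219292 to 11254325, minus strand), had a mean count of 3898 and 718 per kb, so that *Etf1* was 3.83 times its partner per kb.

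The rescue pair that resembles eRF1 and eRF3 stood lower and, per kb of exon, closer together. *Hbs1l* (chromosome 10, 21295979 to 21368898, plus strand) had a mean count of 2416 and 399 per kb, and *Pelo* (chromosome 13, 115088355 to 115090186, minus strand) had a mean count of 597 and 373 per kb. The mean count of *Hbs1l* was 4.05 times that of *Pelo*, but its exons cover 6051 bases against 1600, and per kb of exon the ratio was 1.07. That near equality rests on which bases are counted as exon. *Pelo* has 1 annotated transcript, while *Hbs1l* has 10, of which the longest coding one holds 2793 of the 6051 bases, and divided by that transcript *Hbs1l* was 2.32 times *Pelo*. *Etf1* was 2.62 times *Gspt1* both per kb of the longest transcript and by mean count. The rescue pair was thus little closer than the release pair by the first measure and further apart by the second. Per kb of coding sequence the ratios were 2.29 for the rescue pair and 3.81 for the release pair. Each rescue factor was below its relative at the stop codon: *Etf1* was 7.37 times *Pelo* per kb of exon and 15.1 times per kb of coding sequence, and *Gspt1* was 1.80 times *Hbs1l* per kb of exon and 1.21 times per kb of the longest transcript. *Pelo* also illustrates how length hides a level, because its mean count exceeded 61.2% of genes and its count per kb 82.7%.

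The 2 related GTPases were unequal. *Gtpbp1* (chromosome 15, 79690845 to 79721479, plus strand) had a mean count of 990 and 248 per kb. *Gtpbp2* (chromosome 17, 46161032 to 46169370, plus strand) had a mean count of 170 and 32.1 per kb, the only value of the 10 below the median gene. *Gtpbp1* was 7.72 times *Gtpbp2* per kb of exon and 5.01 times per kb of the longest transcript. *Gtpbp2* has the most annotated transcripts of the 10, at 17, over 5305 bases of exon, and its value was the lowest of the 10 by exon, longest transcript and coding length alike.

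The sensor of collisions and the factors of the peptide branch lay between *Hbs1l* and *Gtpbp2*. *Zfp598* (chromosome 17, 24669687 to 24682016, plus strand) had a mean count of 800 and 205 per kb. *Ltn1* (chromosome 16, 87376651 to 87432612, minus strand) had a mean count of 2214 and 282 per kb, and *Nemf* (chromosome 12, 69310522 to 69357165, minus strand) had a mean count of 2414 and 229 per kb. NEMF recruits listerin to the large subunit, and the order of the pair turned with the measure of length: *Nemf* was 0.811 times *Ltn1* per kb of exon, 1.78 times per kb of the longest transcript and 1.81 times per kb of coding sequence. *Nemf* has 12 annotated transcripts over 10549 bases of exon, while its longest coding transcript has 4732 bases.

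From *Etf1* down to *Hbs1l* and again from *Zfp598* to *Gtpbp2*, neighbours in the order differed by at least 1.62-fold per kb of exon. From *Hbs1l* through *Pelo*, *Ltn1*, *Gtpbp1* and *Nemf* down to *Zfp598*, neighbours differed by 1.07-fold to 1.32-fold. *Hbs1l* stayed above and *Zfp598* below the other 4 with each measure of length, while *Pelo*, *Ltn1*, *Gtpbp1* and *Nemf* changed places, so no order among these 4 is given. With no value per library, no difference between genes could be set against replicate error.

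**Figure D1:**
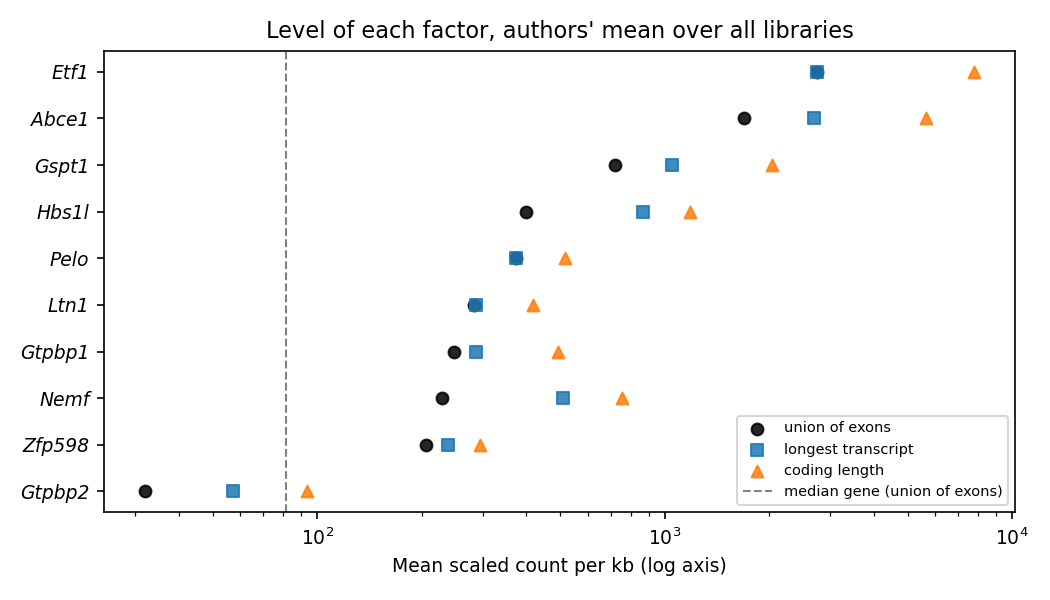
Level of each factor as mean count per kb (log axis), from the authors' mean over all libraries, divided by the union of exons (circles), the longest transcript (squares) or the coding length (triangles). *Etf1*, *Abce1*, *Gspt1* and *Hbs1l* keep the first places and *Gtpbp2* the last under each length, while *Nemf* moves from 229 to 510 and 756. The dashed line is the median gene, 81.2 per kb of exon, and applies to the circles only. No median gene was computed for the other lengths.

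Other genes of the same pathways were taken from lists of names and were read on the same scale, mean count per kb of exon. Of 11 genes of collision sensing and ribosome splitting, 10 lay above the median gene, with a list median of 161. *Rack1* (*Gnb2l1* in the table), a protein of the small subunit that sits where ribosomes collide, was at 3831, *Edf1*, which binds collided ribosomes, at 969, and *Eif4e2*, a cap-binding repressor, at 366. Subunits of the complex that pulls collided ribosomes apart were lower: *Ascc3*, its helicase, was at 161, *Ascc2* at 90.5 and *Trip4* at 83.4. *Ascc1*, also in this list, was at 188. *Map3k20* (*Zak* in the table), the kinase that signals collisions, was at 53.9 and was the only gene of this list below the median gene. All 13 genes of peptide extraction and release were above it, with a median of 244. *Vcp*, the ATPase that extracts ubiquitinated proteins, was at 1883, *Tcf25*, a partner of listerin, at 804, and *Usp10*, a deubiquitinase of ribosomal proteins, at 530. *Ankzf1*, which frees the stalled peptide, was at 99.1.

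Among 13 partners of termination and reinitiation, 11 were above the median gene and the median was 293. *Eif5a*, which assists peptide bond formation and termination, was at 5225, *Pabpc1*, the poly(A)-binding protein that contacts eRF3, at 1664, and *Mcts2*, a relative of the reinitiation factor *Mcts1*, at 879. *Gspt2*, the second gene for an eRF3 protein, was at 156 per kb against 718 for *Gspt1*. *N6amt1*, whose product methylates eRF1, was the lowest of this list at 38.7. The 6 genes of mitochondrial termination and rescue had a median of 104, with *Mrpl58* (*Ict1* in the table), which frees stalled mitochondrial ribosomes, at 217, the release factor *Mtrf1* at 122 and the rescue factor *Mtres1* at 118. Beside them, the cytosolic factors had a median of 328 over 10 genes. The 8 genes of the m6A writer complex had a median of 186, with *Wtap* at 772, *Virma* at 303, *Zc3h13* at 227 and *Mettl3* at 135. Of this complex only METTL3 carries the degron, which acts on the protein, and the values given here are RNA levels. These medians describe lists of different genes, and no difference between them was tested.

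**Figure D2:**
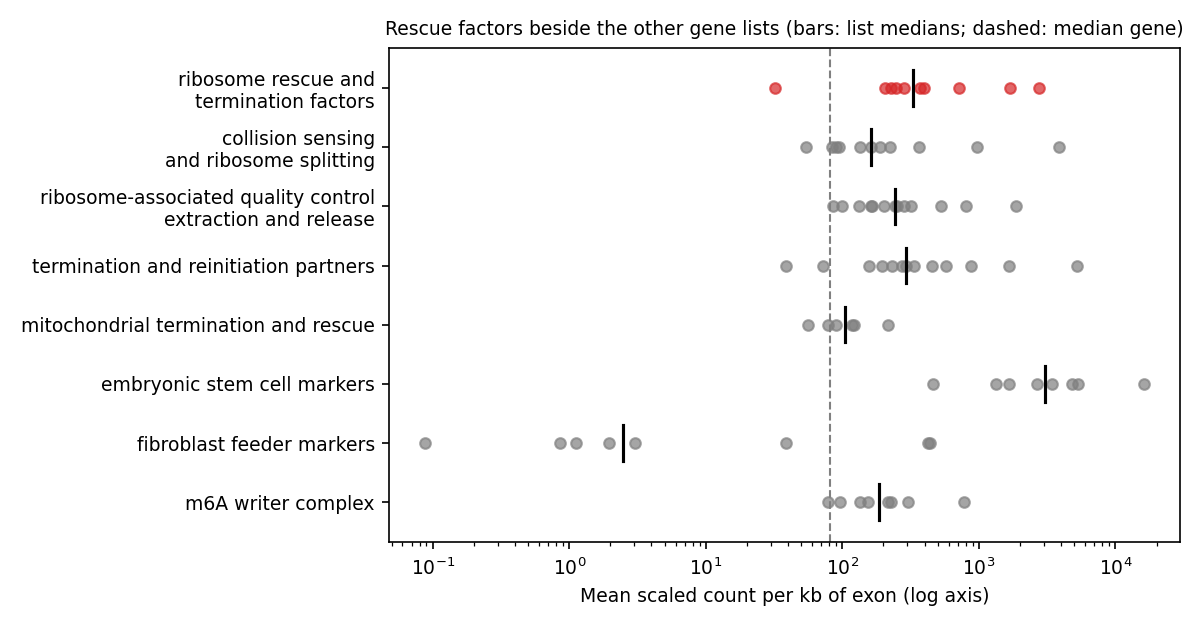
Mean count per kb of exon (log axis) of each gene (points) in the 10 ribosome rescue and termination factors and in 7 other lists of genes, with list medians as bars. The factors have a median of 328, below the stem cell markers at 3038 and above each other list. The nearest list is the termination and reinitiation partners at 293, and the lowest is the fibroblast markers at 2.49. The dashed line is the median gene at 81.2.

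The transcripts of the 10 factors differ in how they are cut into exons, a feature relevant to m6A, which is known to be depleted near exon junctions and enriched in long exons and around stop codons. *Pelo* had the fewest exons of the 10. Its annotated transcript of 1600 bases has 2 exons and so a single junction. The longer exon of 993 bases holds 62.1% of the transcript, against a median of 52.3% over all genes. Over the 13034 protein-coding genes whose mean count was 10 or more, the median transcript had 9 exons and 3.24 exons per kb. The 1.25 exons per kb of *Pelo* were above those of 15.2% of these genes. The other 9 factors had from 11 exons (*Etf1*) to 33 (*Nemf*). *Nemf*, at 6.97 exons per kb, was above 93.4% of genes, and *Hbs1l* followed at 6.44 with 18 exons. The partners *Pelo* and *Hbs1l* lie toward opposite ends of this scale. *Etf1* combined 11 exons with a last exon of 2286 bases, 61.6% of its transcript, and *Ltn1* held 30 exons in 7743 bases, with an internal exon of 810 bases.

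The letters GGACT, the most common core of the m6A consensus, were searched on the transcript strand only, in the longest annotated coding transcript of each gene. GGACT cannot overlap itself. Each of the 10 factors held at least 1 match, as did 92.7% of the 13034 genes, so that its presence sets nothing apart. A match says only that the letters are there, and m6A was not measured in these libraries. Other forms of the consensus were not counted, so few GGACT matches need not mean few consensus sites. *Pelo* and *Abce1* each held 1 match, both in the coding region, at 0.625 and 0.264 per kb against a median of 1.05 per kb over all genes. *Zfp598* (7 matches, 2.09 per kb) and *Gtpbp1* (7 matches, 2.03 per kb) were the richest per kb, above 90.4% and 89.3% of genes, and *Ltn1* held the most in number, 10. In *Zfp598* all 7 lay in the coding region, and in *Gtpbp1* 5 lay in the 3′UTR.

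A match within 200 bases of the end of the coding region was present in 4 of the 10 factors and in 39.8% of all genes, a like share. The matches nearest to that end in these 4 transcripts, and the single matches of *Pelo* and *Abce1*, are shown because their place in the message differs. They are written 5′ to 3′ on the transcript strand as 25 bases, with the match in capitals, from GENCODE vM21 transcripts on GRCm38.
*Nemf*: cgtgttaacaGGACTtccactttac
*Gspt1*: agacctttaaGGACTtccctcagat
*Zfp598*: agttgggcctGGACTgctgtgtgtg
*Gtpbp1*: tcctcactagGGACTgcacaggctg
*Pelo*: agcgttctatGGACTcaagcaggtg
*Abce1*: gagagttcacGGACTctgagatcat
The *Nemf* match lies in the 3′UTR, 76 bases past the end of the coding region, counted at the A of the match (chr12:69311915-69311939, minus strand). The other 5 lie in the coding region. Those of *Gspt1* (chr16:11222611-11222635, minus strand), *Zfp598* (chr17:24681323-24681347, plus strand) and *Gtpbp1* (chr15:79719178-79719202, plus strand) lie 91, 127 and 128 bases before that end. The match of *Pelo* (chr13:115088791-115088815, minus strand) lies 273 bases before it and that of *Abce1* (chr8:79690257-79690281, minus strand) 688 bases before it.

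**Figure D3:**
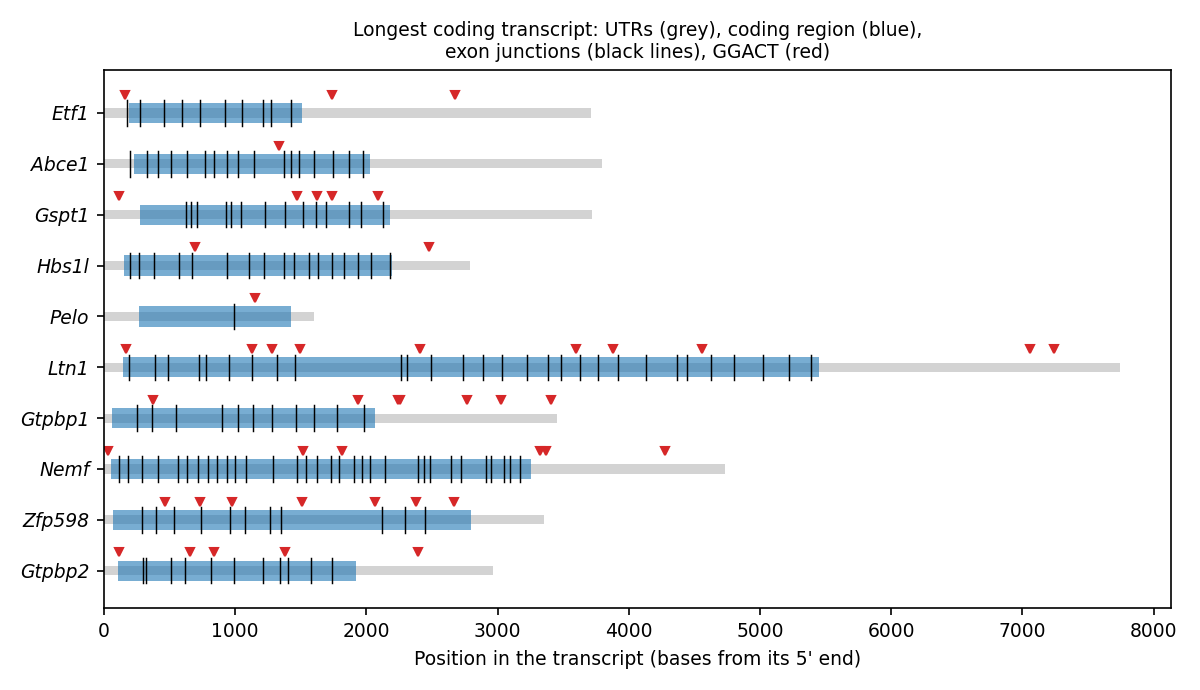
Longest annotated coding transcript of each factor, to scale in bases from the 5′ end, with UTRs in grey, the coding region in blue, exon junctions as black lines and GGACT matches as red triangles. *Pelo* has 1 junction and 1 match in 1600 bases, *Ltn1* has 10 matches in 7743 bases, and the matches of *Zfp598* all lie in its coding region.

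How well a read can be assigned differs between the factors. Reads were 81 bases long and sequenced in pairs, and only those with a single place in the genome were counted by the authors. For 9 of the 10 transcripts, no stretch of 81 bases occurred in an annotated gene elsewhere in the genome. In *Hbs1l*, 338 of 2713 stretches (12.5%) also occurred in annotated processed pseudogenes at 3 other places. All 338 were in Gm9923 on chromosome 10, and some of these were also in the others. A read from these stretches has no single place by itself, though its mate in the pair may lie outside them. Their part in the level of *Hbs1l* was not tested. *Gspt1* shared no such stretch with *Gspt2*.

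*Pelo* lies inside *Itga1*, which encodes an integrin subunit and runs on the same strand from 114953096 to 115101964, without sharing exon bases with it. *Itga1* had a mean count of 264, 14.2 per kb of exon against 373 for *Pelo*. The exons of *Pelo* do overlap those of 2 other annotated genes, neither of which has a row in the table: Gm49395, a protein-coding model on the same strand that spans the locus, shares 739 bases (46.2% of *Pelo* exon), and Gm10734, on the opposite strand, shares 468 bases (29.3%). Position alone cannot split reads between these models, and whether the counting used strand is not certain. The part of such reads in the level of *Pelo* was not tested. Overlaps of the other factors were small. *Nemf* shared 166 bases with *Klhdc2* on the opposite strand (1.57% of its exon), and *Gspt1*, *Hbs1l* and *Gtpbp1* shared 4.40%, 4.40% and 6.35% of theirs with the noncoding genes 2610020C07Rik, 4930455C13Rik and Gm26884 on the opposite strand.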

How the data were processed

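The authors used bowtie2 to remove ribosomal RNA reads and STAR to align what was left to mm10 with strain variants N-masked, kept unique alignments, removed duplicates with Picard, and counted genes and transposable element subfamilies with TEtranscripts at default settings. The labels name total RNA as the molecule, as do the methods of the study, although their extraction text is that of chromatin RNA. Total RNA is assumed here. The deposited signal is 1 mean per gene over all 8 libraries of counts divided by size factors. The other 5 columns (log2 fold change, its standard error, the statistic, p and adjusted p) are the authors' own comparison and were not used, so no test, replicate error or interval could be given and depth per library is unknown.

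Of 17597 genes, 16660 symbols matched GENCODE vM21 (GRCm38) directly and 722 through an older symbol in the RefSeq table (GRCm38.p6), 41 matched more than 1 record and 174 none. Ranks were taken among genes whose mean count was 10 or more. Transcript features came from the longest annotated coding transcript. Scripts ran in Python 3.11.15, and the sequence functions were tested on simulated sequences. The 10 genes and the lists were chosen with earlier results of these data known. Named genes are the 10 genes, the 3 highest genes per kb of each list, listed genes with a mean count under 10 and genes overlapping one of the 10. Others (*Klf4*, *Col1a1*, *Col1a2*, *Pdgfrb*, *Ascc1*, *Ascc2*, *Ascc3*, *Trip4*, *Map3k20*, *Ankzf1*, *Gspt2*, *N6amt1*, *Mettl3*) were named after their values were seen. The planned comparison of protein sequences was not run, since no protein table was used here.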

Additional observations from a re-analysis of the deposited data

How the results depend on the processing

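No paired analysis was possible because the values are 1 mean per gene over all libraries, and for the same reason no library could be left out and the planned fits to counts were not run. Of the 9 ratios between factors that were computed, *Nemf* over *Ltn1* turned with both other lengths. It was 0.811 per kb of exon, 1.78 per kb of the longest transcript and 1.81 per kb of coding length. Outside these ratios, *Nemf* also passed *Pelo* and *Gtpbp1*, and *Gtpbp1* passed *Ltn1*, with both other lengths. With the length of the longest transcript, *Hbs1l* over *Pelo* was 2.32, *Etf1* over *Gspt1* 2.62, *Gspt1* over *Hbs1l* 1.21, *Gtpbp1* over *Gtpbp2* 5.01, *Abce1* over *Pelo* 7.19, *Abce1* over *Etf1* 0.976 and *Ltn1* over *Zfp598* 1.20, and the median of the 10 factors was 442 per kb. With the coding length, these ratios were 2.29, 3.81, 1.73, 5.27, 11.0, 0.729 and 1.42 in the same order, *Etf1* over *Pelo* was 15.1, and the median was 636 per kb. The median percentile of the mean count among genes was 88.9, and it was 91.4 with no filter, 84.7 among genes whose mean count was 100 or more and 80.1 when ranked per kb of exon. The factors held 2325 reads per 1000000 gene reads and 2080 with transposable elements in the total. The median of GGACT matches was 1.28 per kb of transcript and 1.05 over the union of exons. Each shift from a length follows from the annotation, since the reads are the same, and a low mean count such as that of *Gtpbp2* has the fewest reads behind it.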
